A study of Mus musculus with 6 samples.

Results

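Genes of macrophages and monocytes were followed across RNA from sorted kidney cells, as a set of 36 genes among the 31815 mouse gene rows of the table. A row belonged to the set when its symbol, the part of the row name after the gene ID, was in a list of 36 named markers, and all 36 were found on 1 row each. Of these, 35 passed the filter on low counts that left 15462 genes to test, and Timd4 did not. The list was proposed with results of these libraries known, so the levels, fold changes and p-values of its members below are a description and support nothing by themselves.

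The cells came from male mice of 9 to 12 weeks with the genotype Axin2CreERT2/+:R26RtdT/+:Acta2-GFP, 6 days after bilateral ischemia reperfusion injury, an operation that stops and then restores the blood flow of the kidneys. Both groups carried 1 Axin2 allele with a tamoxifen-inducible Cre, a Cre-dependent tdTomato (tdT) reporter and a GFP that follows Acta2, the smooth muscle actin gene, and both received tamoxifen on days 2 and 4. The tdT+GFP+ group (3 libraries) held cells positive for both reporters, so that Axin2, a target of canonical Wnt signalling, was active around the tamoxifen days, and the tdT-GFP+ group (3 libraries) held GFP-positive cells without the red label. Kidneys 1, 2 and 3 each gave 1 library of either kind, there was no uninjured group, and no surface marker of leukocytes is named in the sort. Where 3 values are given for a group, they run in the order of replicates 1, 2 and 3. Total counts were 25697348 to 33029933 per library.

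Macrophages are phagocytes that clear dead cells after kidney injury. Their growth and survival depend on the receptor Csf1r, and the transcription factor PU.1, the product of Spi1, switches on much of the myeloid programme. Kidneys hold resident macrophages, for which Lyve1, Folr2, Timd4 and Cd163 are used as markers in many tissues, and after injury they take in blood monocytes that carry Ccr2 and Ly6c2 and can express Chil3. MHC class II molecules, built from H2-Aa, H2-Ab1 and H2-Eb1 with the invariant chain Cd74, present peptides to T cells and are also made by dendritic cells, B cells and activated endothelium. In RNA from a sorted pool, fewer cells of a type and less RNA per cell cannot be told apart.

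Promoter stretches of 5 members are printed because the genes behind them varied in 3 different ways across the libraries, as described further on: C1qb and Mrc1 with the main body of the set, H2-Aa and H2-Eb1 with the MHC class II genes, and Chil3 with the largest fold change between the sorts. Each is the 150 bases just before the RefSeq start of the gene in GRCm38.p6, read 5′ to 3′ along the gene's strand, with capitals on GAGGAA (the PU box, a core letter string bound by PU.1) and on GATTGG (the core of the Y box of MHC class II promoters, an inverted CCAAT), searched on both strands.
C1qb (chr4:136886201-136886350, minus strand): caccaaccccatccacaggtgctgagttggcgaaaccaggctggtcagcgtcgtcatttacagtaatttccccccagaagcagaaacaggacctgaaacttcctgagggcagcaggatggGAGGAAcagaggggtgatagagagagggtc
Mrc1 (chr2:14229264-14229413, plus strand): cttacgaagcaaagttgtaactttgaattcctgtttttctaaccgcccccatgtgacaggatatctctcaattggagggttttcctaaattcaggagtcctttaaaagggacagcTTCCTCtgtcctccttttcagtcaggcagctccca
H2-Aa (chr17:34287824-34287973, minus strand): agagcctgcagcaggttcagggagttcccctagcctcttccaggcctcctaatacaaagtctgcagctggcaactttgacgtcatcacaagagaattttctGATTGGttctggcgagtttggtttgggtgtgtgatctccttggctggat
H2-Eb1 (chr17:34305717-34305866, plus strand): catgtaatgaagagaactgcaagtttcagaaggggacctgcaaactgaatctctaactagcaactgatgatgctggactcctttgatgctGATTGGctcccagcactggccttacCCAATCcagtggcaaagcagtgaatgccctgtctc
Chil3 (chr3:106167565-106167714, minus strand): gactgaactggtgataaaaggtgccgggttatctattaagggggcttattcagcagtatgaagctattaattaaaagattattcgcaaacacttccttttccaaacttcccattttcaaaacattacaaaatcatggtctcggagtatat

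The PU box letters occurred once in the printed stretch of C1qb and once in that of Mrc1, and the Y box core once in H2-Aa and on both strands of H2-Eb1. Neither string was found in the Chil3 stretch. RefSeq windows of 300 bases (250 before to 50 after a start) were at hand for 26 of the 36 members, and 15 of these (57.7%) held the PU box in at least 1 window, against 31.3% of 27025 genes. The Y box core was held by 5 of the 26 (19.2%) and by 18.2% of all genes, and those 5 included both class II genes with a window. No printed match of either string overlaps a match of the other. A match is a description of letters, not of a bound factor.

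The libraries read as fibroblast RNA with a small macrophage share. The fibroblast and mural markers summed to 34806 to 51061 CPM (counts per 1e+06 counts, on library sizes scaled by TMM), led by Col1a1 at 14933 to 21853 CPM, while the 36 macrophage genes together took 0.137% to 0.436% of the counts of a library. Of the markers of other blood cells, the neutrophil gene Ly6g and the mast cell genes Cpa3, Mcpt4, Tpsb2 and Fcer1a had under 3 counts in every library. The rest of the mast cell and basophil list had more: Hdc 3.77 to 5.53 CPM, Mcpt8 0 to 0.187 CPM and Ms4a2 0.0374 to 2.71 CPM. Ms4a2 was highest in tdT-GFP+ replicate 3. The 19 lymphocyte markers found summed to 7.95 to 12.3 CPM. Neutrophil markers summed to 105, 88.8 and 164 CPM among tdT+GFP+ replicates and to 139, 164 and 156 CPM among tdT-GFP+ replicates, mostly from Lcn2 and Mmp9, which other cells also make, and of 9 tested 5 had positive and 4 negative log2 fold changes (median 0.07). The positive values, named after they were seen, were 0.74 for S100a8, 0.80 for Cxcr2, 0.75 for Mmp8, 0.23 for S100a9 and 0.07 for Csf3r. The negative ones were -0.58 for Mmp9, -0.38 for Lcn2, -0.36 for Retnlg and -0.11 for Il1r2. Replicates 1 and 2 of tdT+GFP+ cells stood apart from the other 4 libraries in red cell and platelet markers, whose sum was 2.47 and 3.61 CPM there and 16.5 to 22.5 CPM elsewhere. Haemoglobin genes carried this gap, such as Hbb-bs at 0.244 and 0.58 CPM there and 4.78 to 7.74 CPM elsewhere. The platelet gene Itga2b stood at 1.50 and 1.32 CPM there and 1.71 to 2.22 CPM elsewhere. Endothelial markers summed to 1351, 1842 and 1585 CPM among tdT+GFP+ replicates and to 2703, 2201 and 3322 CPM among tdT-GFP+ replicates. The part of these other cells in the macrophage values was not tested.

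The macrophage genes varied together from library to library, in an order that crossed the sort. Summed over the 36 genes, the level was 3065, 4418 and 1401 CPM among tdT+GFP+ replicates, and 1852, 1340.2 and 3198 CPM among tdT-GFP+ replicates. The highest library was thus tdT+GFP+ replicate 2 and the lowest tdT-GFP+ replicate 2, from the same kidney by the labels, 3.30-fold apart. For 29 of the 35 tested members (82.9%) the 3 highest libraries were tdT+GFP+ replicates 1 and 2 and tdT-GFP+ replicate 3, a set of 3 that was highest for 8.05% of all 15462 tested genes. The members outside this order were Lyve1, Cd163, Ly6c2, H2-Ab1, H2-Eb1 and Cd74. The gap between the highest and the lowest library was 4.07-fold in the median of the members and 1.43-fold in the median of all genes tested with no library at 0.

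**Figure D1:**
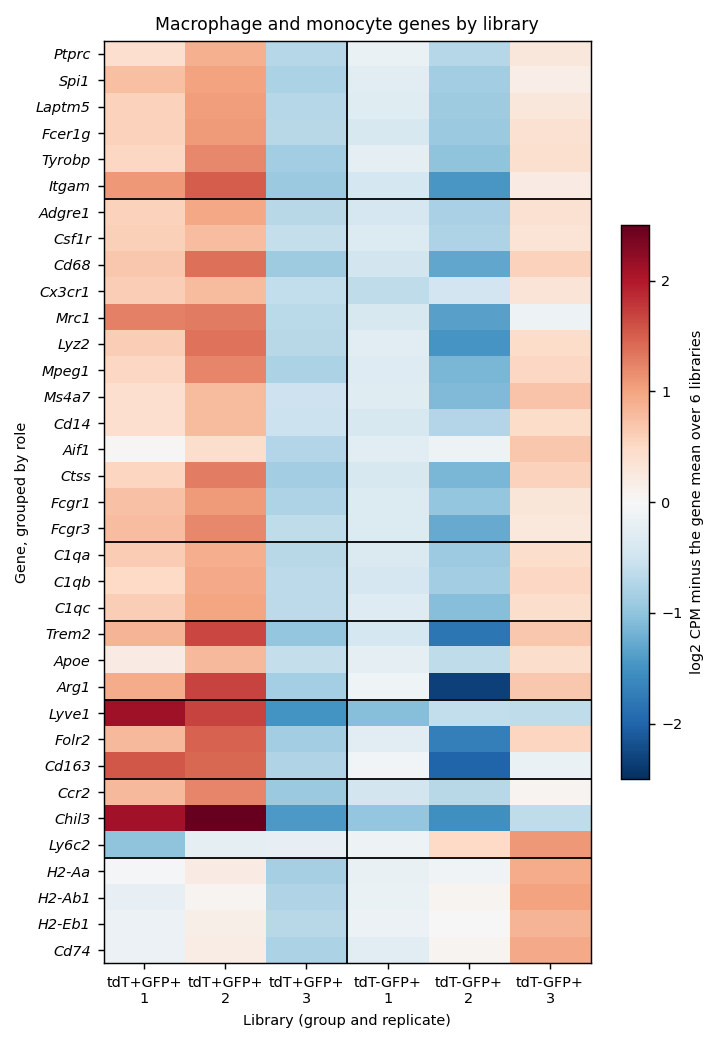
Level of the 35 tested macrophage and monocyte genes (rows, grouped by role with black lines) in each of the 6 libraries (columns), as log2 CPM minus the gene's mean over the libraries. Most rows are red in tdT+GFP+ 1 and 2 and tdT-GFP+ 3 and blue in tdT+GFP+ 3 and tdT-GFP+ 2, while the MHC class II rows at the bottom are reddest in tdT-GFP+ 3.

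Between the sorts, no macrophage gene passed the threshold. The edgeR quasi-likelihood test called 0 of 15462 genes higher and 0 lower at a Benjamini-Hochberg adjusted p under 0.05 (0% called), and the adjusted p of the 35 members ran from 0.438 to 0.88. At an unadjusted p under 0.05 there were 3 members, Chil3, Lyve1 and Mrc1, where 10.7% of all genes were under it. Log2 fold changes, positive where tdT+GFP+ cells were higher, were positive for 29 and negative for 6 members, with a median of 0.70, against a median of -0.00039 and 49.9% positive over all genes. The CPM of the groups did not overlap for 1 member, Ly6c2, which was lower in tdT+GFP+ cells, while 15.8% of all genes did not overlap, 8.60% lower and 7.23% higher. DESeq2 called 1 member, Chil3, higher (adjusted p = 0.0208) among 15 genes called higher (0.097%) and 247 called lower (1.60%), 1.69% of the genes in all.

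By the kidney numbers in the labels, the difference between the sorts had opposite signs in the kidneys. In kidney 1 the tdT+GFP+ library was the higher one for 32 of the 35 members (median difference 0.95 on the log2 scale), and in kidney 2 for 34 (median 1.94). In kidney 3 it was higher for 0 of the 35 (median -1.14). Only Ly6c2 had the same sign in all 3 kidneys among the tested members. Across all genes, libraries of the same kidney number did not deviate together from their group means in kidneys 2 and 3 (r = -0.578 and -0.304), while replicates 2 and 3 taken crosswise did (r = 0.448 and 0.444). Deviations from a group mean sum to 0, so these correlations are tied to each other and the crosswise ones are not separate evidence. The signs in kidneys 2 and 3 hold only if the labelled numbers are right.

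The median over the members followed single libraries. It was 0.29 without tdT+GFP+ replicate 2, 0.41 without tdT-GFP+ replicate 2, 1.07 without tdT+GFP+ replicate 3 and 1.09 without tdT-GFP+ replicate 3. Without tdT+GFP+ replicates 1 and 2 together, the libraries with few red cell counts, it was -0.51 and all 35 members had negative values. This fit was added after the values were seen. Both replicates were among the 3 highest libraries for 29 of the 35 members, so lower values without them follow from that choice. The values without them given for single genes below share this limit and show only how far each gene rested on these replicates. That fit leaves 1 library in the tdT+GFP+ group, which is assumed to vary as the others do.

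**Figure D2:**
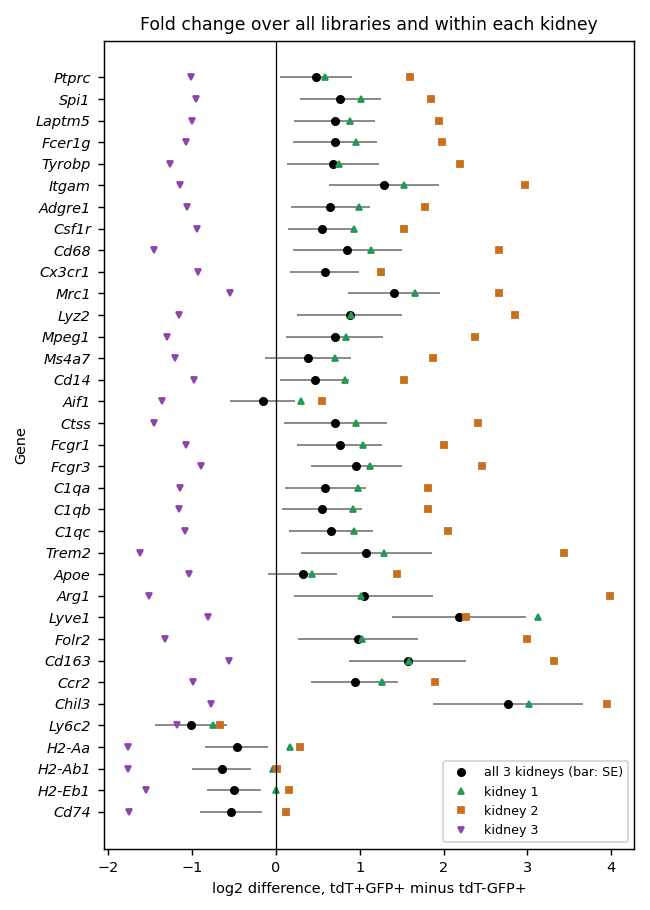
Log2 difference between tdT+GFP+ and tdT-GFP+ cells (horizontal axis) for the 35 tested members (rows), over all libraries with its SE (black points with grey bars) and within kidneys 1, 2 and 3 (coloured marks). All marks of kidney 3 lie left of 0, and nearly all of kidney 2 lie right of it.

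Genes that mark all leukocytes or the myeloid signalling chain had one profile. Ptprc, which encodes the leukocyte phosphatase CD45, had 29.7, 40.9 and 13.4 CPM among tdT+GFP+ replicates and 19.7, 13.5 and 27.0 CPM among tdT-GFP+ replicates. The groups overlapped, with replicate 2 of tdT+GFP+ cells highest and a log2 fold change of 0.48 (SE 0.43, edgeR adjusted p = 0.647). Spi1 itself ran from 5.87 to 21.3 CPM, and the lysosomal protein gene Laptm5 from 34.8 to 133 CPM. The adaptor genes Fcer1g and Tyrobp, which carry signals of Fc and Trem receptors, ranged from 9.68 to 38.5 and from 10.6 to 49.1 CPM. Itgam, the CD11b integrin chain, had the widest range of the 6, from 14.4 to 113 CPM, and the highest fold change (1.29, SE 0.66). Without tdT+GFP+ replicates 1 and 2, Ptprc had -0.56 and Itgam -0.50. The transcripts of Itgam share 66.3% of their 50-base stretches with the overlapping gene model Gm49368, so its counts are uncertain. Exons of Csf1r, Cx3cr1 and Folr2 overlap a gene on the opposite strand (Hmgxb3, Gm33858 and Gm10602), and without counting by strand such reads could not be told apart.

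The core macrophage genes repeated this order. Csf1r had 119, 135 and 52.1 CPM among tdT+GFP+ replicates and 62.6, 46.5 and 100.1 CPM among tdT-GFP+ replicates (log2 fold change 0.55, SE 0.41, and -0.40 without tdT+GFP+ replicates 1 and 2). Adgre1, the gene of the F4/80 antigen, had 38.5, 50.8 and 16.0 against 19.3, 14.7 and 33.4 CPM. In both genes tdT+GFP+ replicate 3 lay below tdT-GFP+ replicates 1 and 3, so the groups overlapped. Lyz2, the lysozyme gene of myeloid cells (chromosome 10, 117277331 to 117282321, minus strand), was the most abundant of these at 494, 826 and 199 against 265, 115 and 444 CPM. Per kilobase of exon, Lyz2 stood at 297 CPM and the protease gene Ctss at 69.0 CPM over the 6 libraries, while Csf1r stood at 14.9 and Adgre1 at 8.89. Lyz2 shares 15.4% of its 50-base stretches with Lyz1, its close copy, and reads could be split between them.

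Other members of the core group differed in how wide they ranged. The lysosomal glycoprotein gene Cd68 ran 6.33-fold from its lowest to its highest library, the pore-forming protein gene Mpeg1 5.19-fold and Ctss 5.32-fold. The chemokine receptor gene Cx3cr1 and the endotoxin co-receptor gene Cd14 ran 2.67-fold and 2.88-fold. The Fc receptor genes Fcgr1 and Fcgr3 had fold changes of 0.76 (SE 0.51) and 0.96 (SE 0.54) on the log2 scale, and Fcgr3 shares 9.58% of its 50-base stretches with Fcgr2b. Ms4a7, a membrane protein gene of macrophages, had 0.38 (SE 0.51). Without tdT+GFP+ replicates 1 and 2 these 3 had -0.52, -0.29 and -0.45. Aif1, the gene of the actin-binding protein IBA1, was the only core gene with a negative value (-0.16, SE 0.39), and its sign turned to 0.19 without tdT-GFP+ replicate 3.

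Mrc1, the mannose receptor gene often used to mark tissue-repair macrophages, had the largest fold change of the core group. It stood at 139, 143 and 36.3 CPM among tdT+GFP+ replicates and at 43.9, 22.5 and 53.2 CPM among tdT-GFP+ replicates. Replicates 1 and 2 of tdT+GFP+ cells lay above all tdT-GFP+ libraries, and replicate 3 lay among them. The log2 fold change was 1.41 (SE 0.55, edgeR adjusted p = 0.455), and -0.12 without tdT+GFP+ replicates 1 and 2.

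The C1q genes varied as 1 unit. C1qa, C1qb and C1qc encode the chains of the complement subcomponent C1q, which macrophages make, and lie side by side on chromosome 4 (GRCm38, minus strand) at 136895917 to 136898803, 136880129 to 136886187 and 136889804 to 136893065. C1qa had 96.1, 116 and 38.3 CPM among tdT+GFP+ replicates and 48.6, 33.0 and 84.6 CPM among tdT-GFP+ replicates. Each gene kept close to a constant part of the C1q sum, 31.8% to 34.0% for C1qa, 31.7% to 35.2% for C1qb and 31.1% to 34.8% for C1qc, in CPM not divided by length. Their log2 fold changes were 0.59 (SE 0.48), 0.55 (SE 0.48) and 0.66 (SE 0.50), and -0.51, -0.48 and -0.45 without tdT+GFP+ replicates 1 and 2.

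Genes tied to lipid handling and repair spanned a wide range of unevenness. Apoe, a lipid carrier gene that many kidney cells also express, was the most abundant member at 829, 1265 and 473 against 617, 463 and 973 CPM, and 360.2 CPM per kilobase on average. Its highest and lowest libraries were 2.73-fold apart, and its log2 fold change was 0.32 (SE 0.41), or -0.08 in the lowest of the fits that each left out 1 library. Trem2, a lipid-sensing receptor gene that signals through Tyrobp, had 14.8, 26.2 and 4.22 against 6.02, 2.35 and 13.1 CPM. Arg1, the arginase gene, had 26.5, 44.9 and 7.76 against 13.0, 2.77 and 22.4 CPM, 16.2-fold from the lowest to the highest library. In kidney 2 alone Arg1 differed by 3.99 and Trem2 by 3.44 on the log2 scale, where C1qa differed by 1.81. Over all libraries the fold changes were 1.05 (SE 0.83) for Arg1 and 1.08 (SE 0.78) for Trem2, and -0.69 and -0.74 without tdT+GFP+ replicates 1 and 2, where Apoe had -0.51.

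**Figure D3:**
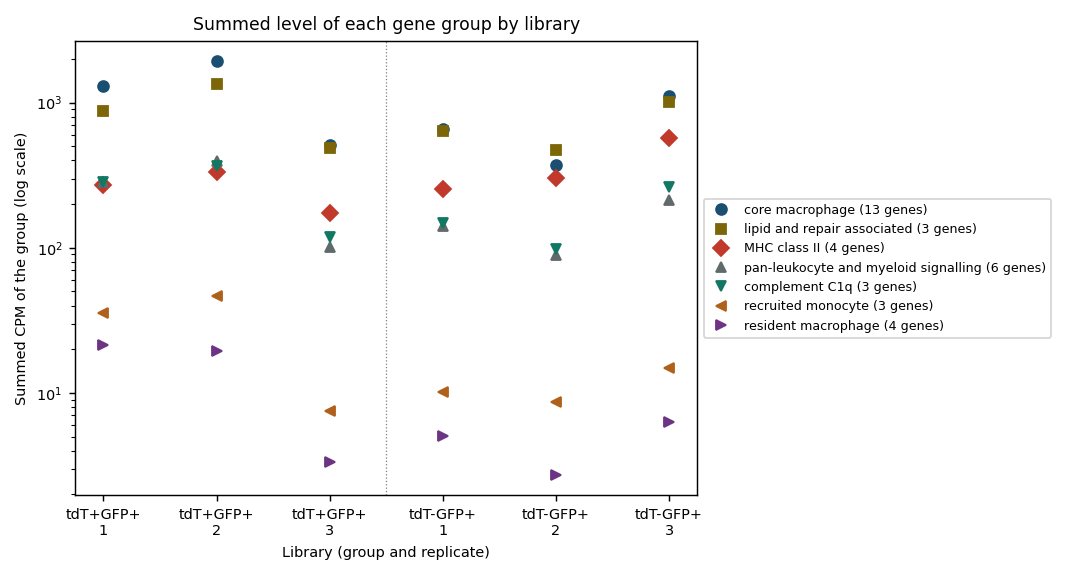
Summed CPM (log axis) of the 7 groups of macrophage and monocyte genes in each library. Most groups share 1 profile with tdT+GFP+ 2 highest, the resident and recruited markers drop further between tdT+GFP+ 2 and tdT+GFP+ 3, and MHC class II (red diamonds) is highest in tdT-GFP+ 3 at 573 CPM.

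The sums of resident and of recruited markers were both highest in tdT+GFP+ replicates 1 and 2. Among the recruited markers Ly6c2 went the other way, from 0.305 CPM in tdT+GFP+ replicate 1 to 1.30 CPM in tdT-GFP+ replicate 3, and adds little to its sum. The 4 resident markers summed to 21.3, 19.5 and 3.35 CPM among tdT+GFP+ replicates and to 5.07, 2.73 and 6.27 CPM among tdT-GFP+ replicates. The 3 recruited markers summed to 35.6, 46.8 and 7.50 against 10.2, 8.71 and 14.9 CPM. In both sums tdT+GFP+ replicate 3 lay within or below the tdT-GFP+ libraries. The median log2 fold change was 1.57 over the 3 resident markers tested and 0.94 over the 3 recruited ones, and -0.63 and -0.59 without tdT+GFP+ replicates 1 and 2. With 3 genes the recruited median is the value of Ccr2 alone. It was 1.86 under a filter of 1 CPM in 3 libraries, which drops Ly6c2, and 0.51 without tdT+GFP+ replicate 2.

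Set against each other inside each library, the marker sets overlapped between the sorts. The ratio of resident to recruited CPM was 0.599, 0.417 and 0.447 among tdT+GFP+ replicates and 0.497, 0.313 and 0.421 among tdT-GFP+ replicates. Recruited markers had the higher sum in every library, in CPM not divided by length. On the log2 scale the group means were -1.05 ± 0.28 and -1.31 ± 0.34 (SD, n = 3 each), a difference of 0.26 that is smaller than the SD of either group. The groups overlapped, and within the kidneys as labelled the tdT+GFP+ ratio was the higher one in 3 of 3. In kidney 3 the ratios were close, at 0.447 and 0.421, and the pairing of kidneys 2 and 3 rests on the labels. The difference was 0.10 without tdT+GFP+ replicate 1, 0.15 without both of its replicates 1 and 2 and 0.07 without tdT-GFP+ replicate 2.

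**Figure D4:**
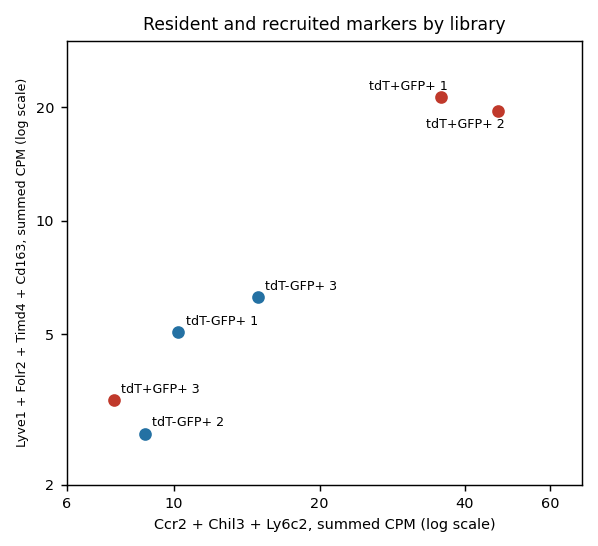
Summed CPM of the resident markers Lyve1, Folr2, Timd4 and Cd163 against that of the recruited markers Ccr2, Chil3 and Ly6c2, both on log axes, with 1 point per library (red tdT+GFP+, blue tdT-GFP+). The points of tdT+GFP+ 1 and 2 lie far up and right at 35.6 and 46.8 CPM of recruited markers, and the other 4 lie between 7.50 and 14.9 CPM.

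Single resident markers were low and uneven. Lyve1, a hyaluronan receptor gene that lymphatic endothelium also expresses, had 10.3, 7.64 and 0.837 CPM among tdT+GFP+ replicates and 1.12, 1.53 and 1.52 CPM among tdT-GFP+ replicates. Replicates 1 and 2 of tdT+GFP+ cells were high and the other 4 libraries lay within 0.837 to 1.53 CPM (log2 fold change 2.18, SE 0.80, edgeR adjusted p = 0.445, and -0.71 without those replicates). Cd163, a scavenger receptor gene for haemoglobin complexes, had 8.36, 7.73 and 1.71 against 2.73, 0.71 and 2.56 CPM (1.57, SE 0.70, and -0.21 without those replicates). Folr2, a folate receptor gene, had 2.56, 4.06 and 0.799 against 1.22, 0.448 and 2.11 CPM (0.98, SE 0.72, and -0.63 without them). Timd4, a receptor gene for phosphatidylserine on dying cells, had 0 to 2 counts per library, below the limit of 3 counts (0.0915 to 0.114 CPM) in every one, and was not tested. The 6 lymphatic endothelial markers summed to 80.3, 117 and 87.9 CPM in tdT+GFP+ and 161, 96.3 and 188 CPM in tdT-GFP+ libraries, mostly from Flt4 and Pdpn, which other cells also express, and 3 had positive and 3 negative values. Prox1, their defining transcription factor gene, stood at 3.32 ± 1.14 and 6.41 ± 1.63 CPM (SD, n = 3 each). Ccl21a and Mmrn1, named after their values were seen, were highest in tdT+GFP+ replicate 2 like most members, with 2.62, 7.35 and 0.761 against 3.52, 0.486 and 4.89 CPM for Ccl21a and 1.46, 2.42 and 0.152 against 1.51, 0 and 1.08 CPM for Mmrn1. The part of lymphatic cells in the Lyve1 values was not tested.

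Among the recruited markers, Ccr2 followed the main body of the set, while Chil3 had the same 3 highest libraries with a far wider gap. Ccr2, the receptor gene for the monocyte attractant Ccl2, had 18.5, 24.4 and 5.52 against 7.64, 6.50 and 11.0 CPM (0.94, SE 0.52, and -0.59 without tdT+GFP+ replicates 1 and 2). Chil3, which encodes the chitinase-like protein Ym1 (ENSMUSG00000040809.10, chromosome 3, 106147554 to 106167564, minus strand), had 16.8, 21.9 and 1.45 CPM among tdT+GFP+ replicates and 2.01, 1.35 and 2.52 CPM among tdT-GFP+ replicates. Its log2 fold change of 2.77 (SE 0.89, edgeR adjusted p = 0.438) was the largest of the set and rested on tdT+GFP+ replicates 1 and 2, without which it was -0.42. Chil3 shares 16.9% of its 50-base stretches with its copy Chil4, so part of its reads could be split.

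Ly6c2 had a different profile from the main body of the set. This surface protein gene of inflammatory monocytes had 0.305, 0.516 and 0.533 CPM among tdT+GFP+ replicates and 0.56, 0.859 and 1.30 CPM among tdT-GFP+ replicates, from 10, 16 and 14 against 17, 23 and 35 counts. All tdT-GFP+ libraries were the higher ones, but the nearest values, 0.533 and 0.56 CPM, rest on 14 and 17 counts (log2 fold change -1.01, SE 0.43, edgeR adjusted p = 0.469). Its neighbour and close copy Ly6c1, which endothelium expresses, had 31.8, 44.3 and 42.4 against 67.2, 97.1 and 133 CPM. As a share of Ly6c1, Ly6c2 was 0.833% in its lowest library and 1.51-fold that in its highest, and relative to the C1q sum it ranged 8.14-fold. The transcripts of Ly6c2 share 13.9% of their 50-base stretches with Ly6c1. Whether reads of Ly6c1 were assigned to Ly6c2 was not tested. Without Ly6c2 the difference between the sorts in the log2 resident to recruited ratio was 0.18.

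MHC class II genes formed the other departure. Cd74 had 137, 174 and 87.4 CPM among tdT+GFP+ replicates and 126, 159.6 and 295 CPM among tdT-GFP+ replicates. H2-Ab1, which encodes the beta chain of I-A (chromosome 17, 34257689 to 34269419, plus strand), had 45.9, 55.8 and 31.4 against 47.0, 55.3 and 107 CPM. H2-Aa, the gene of the I-A alpha chain, had 44.9, 52.9 and 25.7 against 40.1, 43.3 and 87.8 CPM, and H2-Eb1, the I-E beta chain, 41.8, 51.2 and 28.5 against 41.9, 46.1 and 83.4 CPM. All 4 were highest in tdT-GFP+ replicate 3 and lowest in tdT+GFP+ replicate 3. The log2 fold changes were -0.54 (SE 0.37), -0.65 (SE 0.35), -0.47 (SE 0.38) and -0.50 (SE 0.32), none past the threshold, and without tdT-GFP+ replicate 3 they were -0.10, -0.20, -0.02 and -0.12. Without kidney 3 in both groups they were 0.12, -0.01, 0.23 and 0.08, so that 3 of the 4 signs turned. Without tdT+GFP+ replicates 1 and 2 they were -1.13, -1.13, -1.13 and -0.98, further from 0 than with all libraries.

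Read against C1q in the same library, which takes out the amount of macrophage RNA as far as C1q follows it, several members were nearly level. This measure was chosen after the values were seen, and so were the 5 genes named next. Adgre1 was 12.8% to 15.0% of the C1q sum, Fcer1g 9.19% to 10.6%, Laptm5 30.0% to 36.6%, Fcgr1 3.13% to 3.84% and Csf1r 37.0% to 47.5%. Their ranges over libraries, 1.15-fold to 1.28-fold, set against 2.90-fold to 4.07-fold in CPM, show how tightly these genes followed C1q. Others followed it less closely, with 1.94-fold for Lyz2, 1.70-fold for Cd68 and 1.68-fold for Cx3cr1.

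Some genes did not stay level on this measure. MHC class II summed to 95.4%, 91.7% and 145% of C1q among tdT+GFP+ replicates and to 173%, 311% and 219.7% among tdT-GFP+ replicates. All tdT-GFP+ libraries were above all tdT+GFP+ ones, and the difference of the mean log2 ratio was -1.07 (0.11 ± 0.37 against 1.19 ± 0.42, SD, n = 3 each), larger than the SD of either group. It was -0.85 to -1.29 on leaving out single libraries, -0.73 without kidney 2 in both groups and -0.65 without tdT+GFP+ replicates 1 and 2. Relative to Csf1r, Ptprc or Laptm5 it was -1.01, -0.90 and -1.11. Over the libraries these genes ranged only 1.28-fold, 1.33-fold and 1.22-fold relative to C1q. Values near -1.07 follow from that and are not separate evidence. Each of the 4 class II genes was lower in tdT+GFP+ cells without overlap on this measure, as was Aif1, where 5.24% of all genes were (5.43% in either direction). A gene that does not follow C1q takes on the spread of the C1q sum here, and that sum overlapped between the groups. The shares over all genes are thus largely set by C1q and cannot say whether the members stand out.

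Mrc1 went the other way. It stood at 49.0%, 39.3% and 30.5% of C1q among tdT+GFP+ replicates and at 29.9%, 23.0% and 20.4% among tdT-GFP+ replicates, with a narrow gap between the groups. Mrc1 and Fcgr3 (15.1% to 17.8% against 11.9% to 15.0%) were the members higher in tdT+GFP+ cells without overlap, where 0.188% of all genes were. That share, too, is largely set by the C1q sum and is no measure of how unusual these members are. Chil3 was at least 5.94% of C1q in tdT+GFP+ replicates 1 and 2 and 0.966% to 1.37% in the other 4 libraries, so that it set these replicates apart and not the sorts. Cd163 was likewise highest in those replicates, at 2.95% and 2.12% against 0.725% to 1.86%, and it was not alone. Itgam had 29.6% and 31.0% against 14.7% to 19.7%, and Lyve1 3.66% and 2.10% against 0.583% to 1.56%. Arg1 had 9.35% and 12.3% against 2.82% to 8.87%, and Trem2 5.23% and 7.20% against 2.40% to 5.03%.

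**Figure D5:**
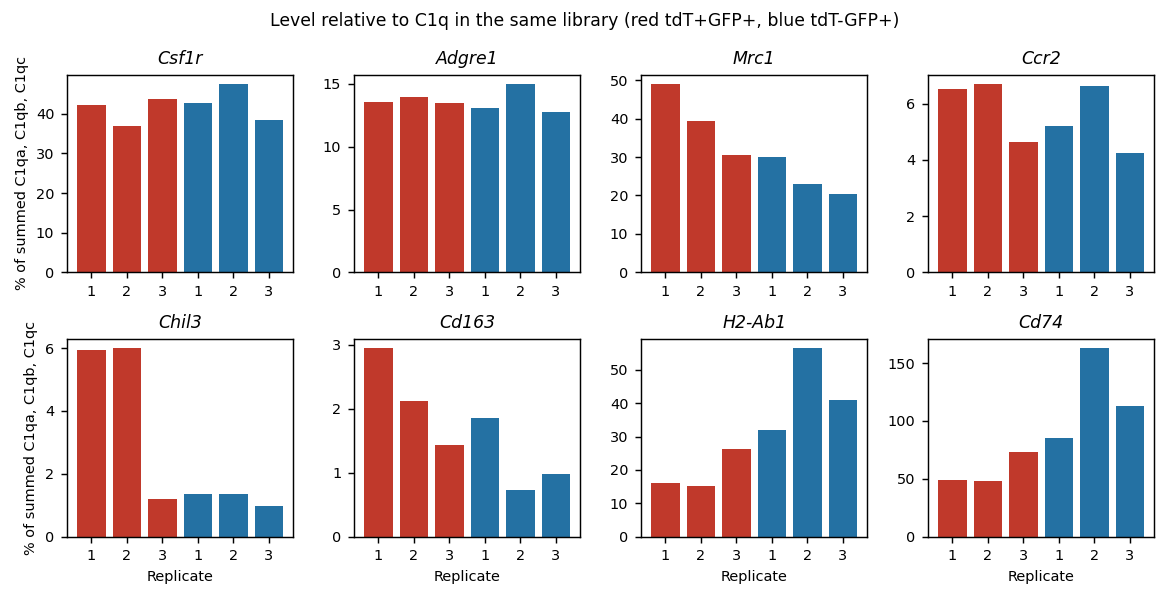
Level of 8 members as a percentage of the summed CPM of C1qa, C1qb and C1qc in the same library (bars from 0, red tdT+GFP+ and blue tdT-GFP+, replicates 1 to 3). Csf1r and Adgre1 are nearly level, Chil3 is high in tdT+GFP+ 1 and 2 alone, and H2-Ab1 and Cd74 are higher in all tdT-GFP+ libraries than in all tdT+GFP+ ones.

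Cells other than macrophages can make MHC class II, and their markers are given here beside it. The endothelial sum was higher in all tdT-GFP+ libraries, as given above. In edgeR 0 of 13 endothelial markers passed (lowest adjusted p 0.388), as did 0 of all 15462 genes. DESeq2 called 11 of the 13 lower in tdT+GFP+ cells, where it called 1.60% of all genes lower. For 10 of the 13 the tdT+GFP+ values were lower without overlap, as for 8.60% of all genes. Dendritic cell markers, 11 found, summed to 55.5 to 87.6 CPM in tdT+GFP+ and 53.2 to 84.8 CPM in tdT-GFP+ libraries. Of the 9 tested 4 had positive and 5 negative log2 fold changes (median -0.06), and 0 passed (lowest adjusted p 0.418). The largest part of the sum came from Zbtb46, a transcription factor gene that endothelium also expresses, at means of 37.0 and 38.6 CPM. Of the 9 tested dendritic cell markers 4 had the 3 highest libraries of the macrophage genes (Flt3, Cd209a, Itgax and Dpp4). So did 2 of 9 neutrophil markers (Csf3r and Cxcr2), where 8.05% of all genes did. All were named after their values were seen, and Flt3 rests on 4 to 28 and Cd209a on 14 to 37 counts per library. Among markers singled out after their values were seen, Clec9a had 0.763, 1.16 and 0.723 against 1.84, 1.42 and 2.15 CPM. It was lower in tdT+GFP+ cells without overlap, the 1 such gene of the 9 tested, as were 8.60% of all genes. Itgax, an integrin gene that macrophages also express, had 17.2, 32.6 and 6.47 against 9.38, 5.12 and 19.7 CPM (0.72), and Batf3 had a positive value as well (0.58). Ciita, the gene of the class II transactivator, likewise singled out, had 3.39, 4.22 and 1.64 against 2.53, 2.69 and 7.45 CPM. The part of these cells in the class II difference was not tested.

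A wider list of 56 macrophage and monocyte genes outside the set behaved in the same way in part. Of 52 tested, 40 had positive log2 fold changes (median 0.39) and 0 passed (adjusted p from 0.445 to 0.971), and 37 had their 3 highest libraries in tdT+GFP+ replicates 1 and 2 and tdT-GFP+ replicate 3, against 8.05% of all genes. Gpnmb, a glycoprotein gene of lipid-laden macrophages, ran from 10.8 to 445 CPM, with the same 3 highest libraries as Arg1 and Trem2. Its values were 129, 445 and 30.6 CPM among tdT+GFP+ replicates and 69.1, 10.8 and 176 CPM among tdT-GFP+ replicates. Gas6, a ligand gene that stromal cells also express, stood at 282 to 418 CPM and had a negative log2 fold change (-0.17, SE 0.14). Spp1, the osteopontin gene of injured epithelium and macrophages, was highest in tdT-GFP+ replicate 3 at 4795 CPM.

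Some signals that feed or attract macrophages were abundant in these stromal libraries, such as Cx3cl1 and Csf1, and others were near the limit, such as Csf2 at 0.129 to 0.461 CPM, which was not tested. None passed the test between the sorts. The list of growth and recruitment genes had 11 tested, of which 8 were on the positive side (median log2 fold change 0.09). Csf1, the ligand of Csf1r, had 197, 187 and 179 CPM among tdT+GFP+ replicates and 167, 175 and 139 CPM among tdT-GFP+ replicates (0.23, SE 0.10, edgeR adjusted p = 0.477). All its tdT+GFP+ values lay above all others. It was the 1 gene of the 11 tested without overlap, and 7.23% of all genes were higher without overlap. Cx3cl1, the ligand of Cx3cr1, stood at 892 to 1041 CPM (0.08, SE 0.10). The monocyte attractants Ccl2, Ccl7 and Ccl12, singled out after their values were seen, were the 3 genes of the list with the 3 highest libraries of the macrophage genes. Ccl7 had 16.7, 16.9 and 5.59 against 5.73, 3.89 and 6.23 CPM (1.31, SE 0.43, adjusted p = 0.438). Complement C3 was set by tdT-GFP+ replicate 3, at 504 CPM against 78.3 to 163 CPM in the other 5 libraries.

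Some markers of another kidney cell type varied with the set. Of 12 tubule epithelial markers 3 had the 3 highest libraries of the macrophage genes, as did 8.05% of all genes, and all 3 are genes of the proximal tubule. The phosphate transporter gene Slc34a1 had 96.2, 181 and 46.1 CPM among tdT+GFP+ replicates and 65.6, 61.9 and 144 CPM among tdT-GFP+ replicates. The endocytic receptor genes Lrp2 and Cubn, singled out after their values were seen, ran from 34.4 to 161 and from 12.4 to 51.8 CPM. Other tubule markers went a different way. Umod had 121, 82.5 and 451 against 353, 621 and 754 CPM, and Krt8 45.7, 43.5 and 99.4 against 75.8, 110.5 and 169 CPM. Havcr1 had 61.1, 95.1 and 47.3 against 69.3, 45.3 and 268 CPM. The whole list summed to 553, 683 and 927 against 816, 1181 and 1912 CPM and so did not share the order of the macrophage genes. Log2 fold changes were positive for 2 of the 12 and negative for 10. The part of tubule material in the macrophage profile was not tested.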

How the data were processed

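RNA was measured in 6 libraries, 3 from each sort. Per the labels' protocols, tissue was dissociated on ice with cold-active protease and Liberase, debris and doublets were gated out, and strand-specific libraries were made from poly(A) RNA. The sources used here do not say if reads were counted by strand. The authors deposited estimated counts of RSEM for each gene (column names are those of RSEM gene results), all whole numbers, so rounding changed 0 values. Among the tools in the submitters' processing notes are RSEM 1.2.28, DESeq2 1.26.0 and STAR 2.6.1, and the builds named are mm10 and GRCh38, all without a role. The 92 ERCC spike-in rows were 0 throughout and were left out.

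The test was the quasi-likelihood one of edgeR 4.0.16 (R 4.3.3; robust, group as the only term) after filterByExpr and TMM scaling, with Benjamini-Hochberg adjustment over all genes and a threshold of 0.05. The SE is the coefficient over the square root of its F value. CPM use TMM-scaled library sizes, within-kidney differences use log2 CPM with a prior count of 2, and coordinates and exon lengths are from GENCODE M21 (GRCm38). Shared sequence was counted as 50-base stretches of a gene's transcripts found in another gene's. Alternatives were DESeq2 1.42.0, its size factors, other filters, the kidney as a block, and leaving out libraries. The procedure was tested on simulated data with the same spread between replicates set for all genes, which does not measure its power in these libraries. A count of 3 is 0.0915 to 0.114 CPM, and for abundant genes the precision is set by the spread of the replicates.

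The members and lists were chosen with earlier results of these data known. All members may be named, and of each other list the 4 genes with the highest mean CPM, with exceptions marked in the text. The GATTGG search and the ratios to C1q were added after the values were seen. The labels tie each replicate number to 1 kidney, so the numbers pair the libraries. Across genes, the correlation of same-kidney libraries after removing group means was 0.0385, -0.578 and -0.304 (kidney 1, 2, 3), and 0.448 and 0.444 for replicates 2 and 3 taken crosswise. Removing the means ties these correlations to each other. The values within kidneys rest on the labels. The labels call the 3 kidneys biological replicates without naming the mice, and p-values measure only the spread between these samples.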

Additional observations from a re-analysis of the deposited data

How the results depend on the processing

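No gene passed in edgeR with all libraries, with DESeq2 size factors, without a filter, with 1 CPM in 3 libraries, with the kidney as a replicate block, or on leaving out a library or a kidney (0 in each), while the DESeq2 test called 262 genes. Before adjustment, 1650 genes were under 0.05 in edgeR. The median log2 fold change of the members was 0.70 in all fits but these: 0.66 with the replicate block, 0.29 to 1.09 on leaving out single libraries, 0.63, -0.01 and 1.46 without kidney 1, 2 or 3, and -0.51 without tdT+GFP+ replicates 1 and 2, an alternative added after seeing the data. For resident markers it was 1.48 with the replicate block and -0.63 without those replicates. For recruited markers it was 0.78 with the block and 1.86 with the 1 CPM filter. The summed level of the members differed by 831 CPM (tdT+GFP+ minus tdT-GFP+), by 2146 CPM without kidney 3, and by -292 CPM without kidney 2 and -729 CPM without tdT+GFP+ replicates 1 and 2. The log2 ratio of resident to recruited markers differed by 0.07 to 0.41 on leaving out single libraries and by 0.26 with the kidneys paired as a block. The log2 ratio of MHC class II to C1q differed by -0.65 without tdT+GFP+ replicates 1 and 2. Of the single members, 2 turned sign on leaving out 1 library, Aif1 and Apoe, and the kidney block called 0 of them. Depth limits Timd4 (0 to 2 counts), Ly6c2 (10 to 35 counts, left out by the 1 CPM filter) and Folr2 (12 counts in its lowest library).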
